A study of Mus musculus with 14 samples.

Results

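The 38 genes described here encode the core machinery of macroautophagy, and they were chosen by name. They comprise the ULK complex (4 genes), the class III PI3-kinase complex and its regulators (6), proteins of membrane supply (5), the conjugation enzymes (11), the LC3-like proteins (5) and cargo receptors (7). A probe was found under its current or an older symbol for 37 of the 38, against 27343 gene names on the array. No value is given for Atg9a, the lipid scramblase of autophagic vesicles, because no probe name matched it. All 37 were well above background on all 14 arrays and entered the fit of 17720 genes, and the brightest probe stood for each gene.

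The study profiled mouse blood cells of 2 genotypes with single-colour Agilent arrays. Rheb1-/- mice carried Vav1-cre together with Rheb1fl/fl alleles, so that Rheb1 was deleted across the hematopoietic system rather than in myeloid cells alone, and the comparison mice were labelled wild type. The sources used here give neither the age of the mice nor whether wild-type mice carried the floxed allele. Myeloid progenitors (sample titles GMP) and myeloid cells (sample titles M) had 3 arrays per genotype, and hematopoietic stem cells had 1 array per genotype. The labels do not say which arrays come from separate animals, and the p-values below therefore reflect the spread among these samples, which may be technical.

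Autophagy encloses cytoplasm, organelles or bound cargo in a double membrane that fuses with the lysosome. The ULK kinase complex starts the process, the PI3-kinase complex marks the growing membrane with PI3P, and ATG7, ATG3, ATG10 and the ATG12-ATG5-ATG16L1 ligase attach LC3 and GABARAP proteins to its lipids, where they bind cargo receptors. RHEB is the small GTPase that activates mTORC1, and mTORC1 phosphorylates ULK1 and the transcription factor TFEB and thereby restrains autophagy. In the myeloid lineage autophagy takes part in granulocyte differentiation and in the handling of phagocytosed material, and in maturing red cells it removes mitochondria.

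Levels below are log2 signals relative to each array's 75th percentile, so 0 is that percentile and a level is compared for 1 gene across arrays, not between genes. Between 58.5% and 67.6% of spots were well above background, no spot was saturated, and replicate arrays correlated at 0.988 to 0.992. Rheb stood at 3.99, 4.08 and 3.82 on the wild-type progenitor arrays and at 3.31, 2.69 and 2.65 on the Rheb1-/- ones. In myeloid cells it stood at 3.61, 3.00 and 2.86 in wild type and at 2.23, 2.16 and 2.43 in Rheb1-/-, and in stem cells at 3.51 and 2.31. Every Rheb1-/- array was lower than every wild-type array of its cell type. The log2 difference was -0.88 ± 0.22 (SE) in myeloid cells (adjusted p = 0.0121) and -1.08 ± 0.22 in progenitors, where it did not pass the test (adjusted p = 0.095). The position of the Rheb probe relative to the floxed exon was not established.

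The labelled cell types were set against marker genes as summed linear levels in units of each array's 75th percentile. Mature neutrophil markers summed to 3670 to 4030 in wild-type and 2925 to 3543 in Rheb1-/- myeloid cells, against 843.1 to 1365 in progenitors of either genotype, and myeloid progenitor markers to 1670 to 2034 in progenitors. Stem cell markers were highest on the stem cell arrays, at 133.8 and 164.4 against 51.01 to 80.44 in progenitors, but those arrays also carried neutrophil markers at 1119 and 574.4. Erythroid markers summed to 749.6, 1101 and 1211 on the wild-type myeloid arrays and to 462.5, 105.6 and 273.9 on the Rheb1-/- ones. Most of each of these sums was Hba-a1, at log2 levels of 9.43, 9.91 and 10.08 in wild type and 8.74, 6.61 and 7.99 in Rheb1-/-.

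The 3 wild-type myeloid arrays lay on 1 slide, with the Rheb1-/- stem cell array, and the 3 Rheb1-/- myeloid arrays on another, with 1 Rheb1-/- progenitor array, so genotype and slide cannot be told apart in myeloid cells. They cannot be told apart in stem cells either. Progenitors of both genotypes shared 1 slide, with 2 arrays each. In these bulk samples fewer cells of a type and less RNA per cell cannot be told apart.

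The limma test passed for 30 of 37 autophagy genes between wild-type cell types, which is 81.1% against 77.9% of all genes tested. Between genotypes it passed for 17 in myeloid cells, which is 45.9% against 34.2%, and for 0 in progenitors, against 0.0734%. In wild type, 21 of the 37 measured members were higher in myeloid cells than in progenitors, which is 56.8%, against 39.5% of all genes tested. Another 9 were lower, which is 24.3%, against 38.4% of all genes. The median log2 difference was 0.44 for the members and 0.07 for all genes. All measured members were well above background on all 14 arrays, and among the 14053 genes tested for which this held 36.9% were higher and 43.1% lower. Under quantile normalization the median of all genes was -0.05 and that of the members 0.38, and the same counts of 21 and 9 passed. In Rheb1-/- samples 19 members were higher in myeloid cells, against 30.4% of all genes, and 8 were lower, against 38.3%, with medians of 0.21 and -0.08.

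Of the members called, 26 were called in the same direction in both genotypes, which is 86.7% of the wild-type list and 96.3% of the Rheb1-/- list. Over all genes tested the shares were 80% and 90.9%. Becn1, Uvrag, Nbr1 and Tax1bp1 passed in wild type alone and Atg5 in Rheb1-/- alone, but the test of the difference between genotypes passed for none of these 5 (adjusted p from 0.108 for Nbr1 to 0.796 for Atg5). Wild-type myeloid cells and wild-type progenitors shared no slide, so cell type and slide cannot be told apart there. In Rheb1-/- samples 1 progenitor array lay on the slide of the myeloid arrays, and against it alone all 27 called members kept their direction. That progenitor array and the same myeloid arrays were also in the fit that gave these calls. The kept direction is therefore not a separate check, and the part of slide in these differences was not tested.

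**Figure D1:**
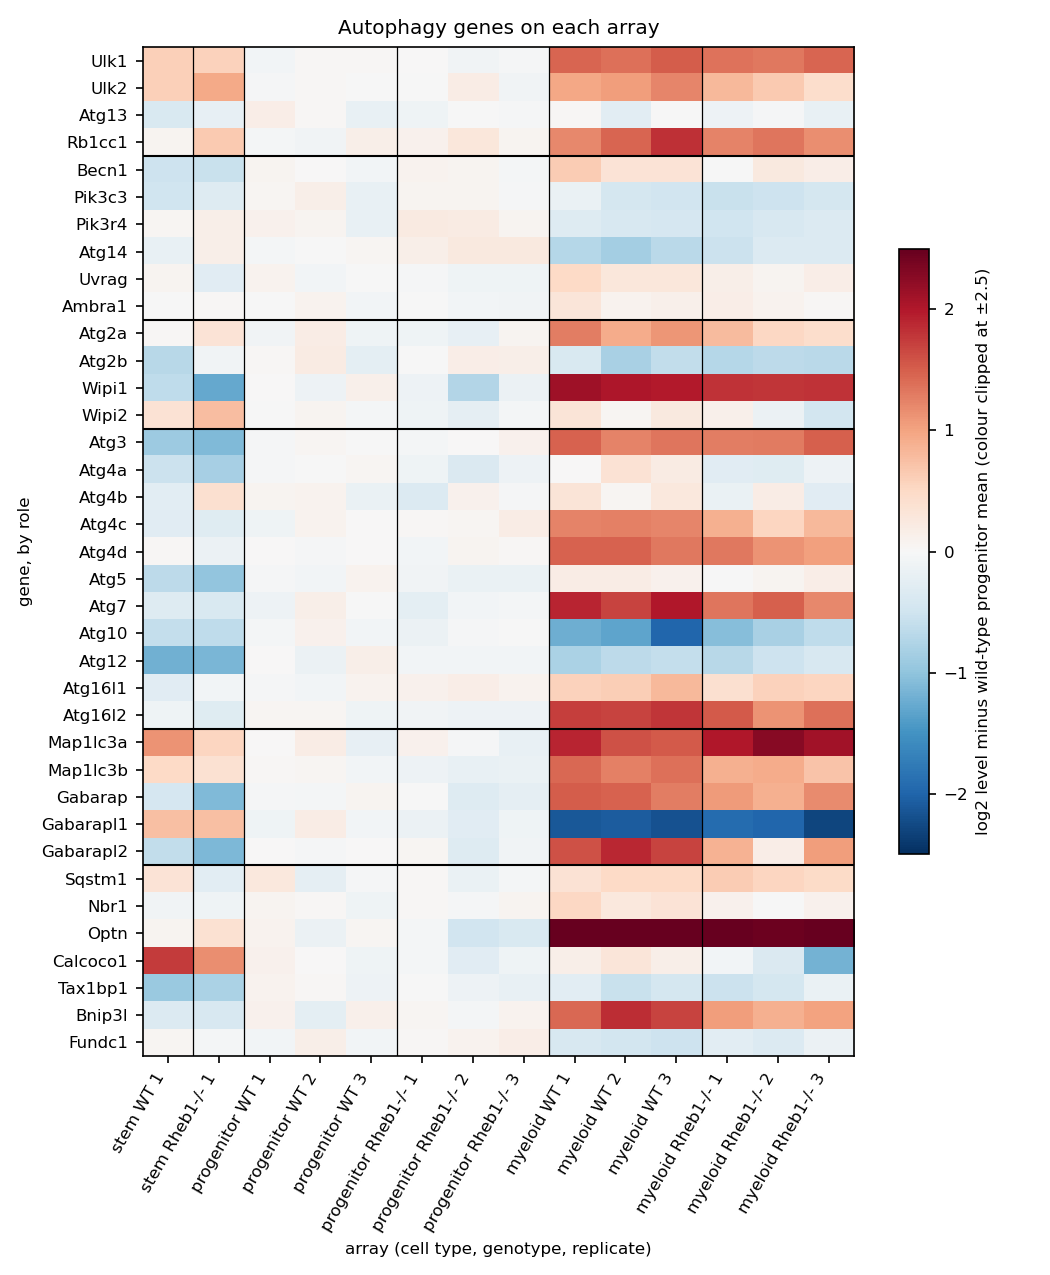
Each row is a gene, grouped by role between black lines, and each column an array. Colour gives the log2 level minus the gene's mean over the 3 wild-type progenitor arrays, red for higher and blue for lower. The myeloid columns stand apart from the progenitor columns in both genotypes, with Optn highest (2.71 in wild type) and Gabarapl1 lowest (-2.12).

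Between genotypes, 14 of 37 members were lower in Rheb1-/- myeloid cells, which is 37.8%, against 17.6% of all genes tested. Another 3 were higher, which is 8.11%, against 16.7% of all genes. The median log2 difference was -0.23 for the members and -0.08 for all genes. Among the 14053 genes well above background on all 14 arrays 16.6% were lower and 19.9% higher, with a median of -0.02. Most of these differences were small: all but Gabarapl2, Bnip3l, Calcoco1 and Atg10 were below 1.5-fold. The count of 17 fell to 10 without wild-type array 2, to 10 without Rheb1-/- array 2 and to 11 without Rheb1-/- array 3. It fell to 7 when the 6 myeloid arrays were fitted alone, all of them lower (Atg2a, Atg4a, Atg4c, Atg7, Map1lc3b, Gabarapl2 and Bnip3l), and the 3 higher members no longer passed. The last 5 of these 7 passed under every alternative that was run, each array left out in turn included. In progenitors 0 of 37 members passed in either direction, against 0.0508% higher and 0.0226% lower among all genes, and 3 members had an unadjusted p under 0.05, which is 8.11% against 12.3% of all genes.

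**Figure D2:**
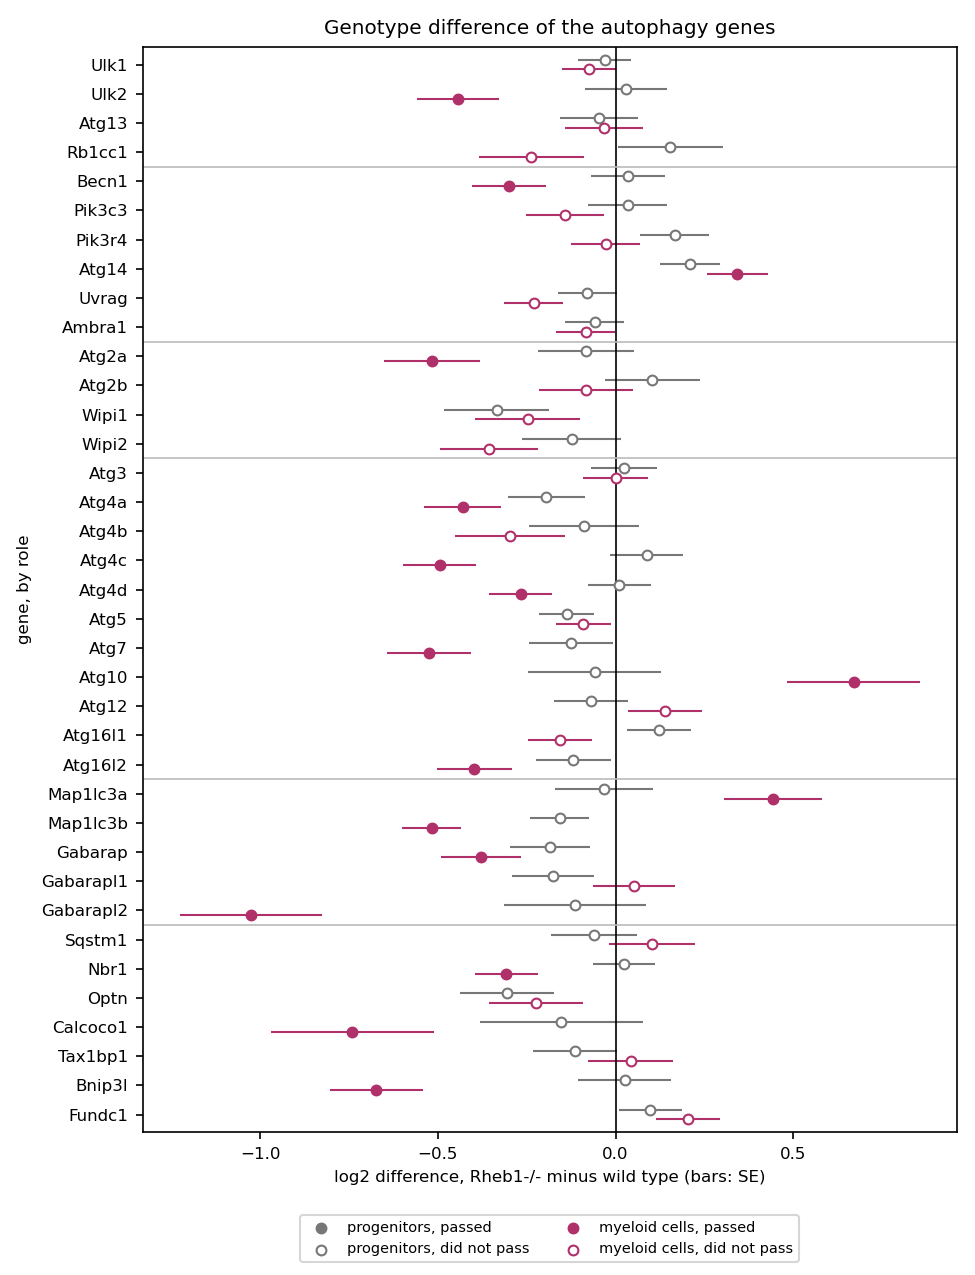
Points give the log2 difference between Rheb1-/- and wild type for each gene in progenitors (grey) and myeloid cells (purple), and bars its SE. Filled points passed the limma test at adjusted p 0.05: none of the grey points is filled, and 17 of the purple ones are, 14 of them left of 0.

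In the ULK complex 3 of 4 genes rose from progenitors to myeloid cells in both genotypes, against 39.5% of all genes in wild type and 30.4% in Rheb1-/-. Ulk1, the kinase that starts autophagy, stood at 2.98, 3.09 and 3.08 in wild-type progenitors and at 4.50, 4.44 and 4.57 in wild-type myeloid cells. The groups did not overlap, and the difference of 1.45 ± 0.08 amounted to 2.73-fold (adjusted p = 6.13e-08). Rb1cc1, which encodes the scaffold FIP200, rose by 1.49 ± 0.15, from levels of -0.07 to 0.15 to levels of 1.21 to 1.83. Further Rb1cc1 probes, all well above background on all 14 arrays, rose less, by 0.50 to 1.14. Ulk2, the second ULK kinase, rose by 1.07 ± 0.12. Atg13, the adaptor that links the kinases to FIP200, changed by -0.08 ± 0.11 and did not pass (adjusted p = 0.515).

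The genotype difference of this complex in myeloid cells passed for 1 of 4 genes, against 34.2% of all genes. Ulk2 stood at -0.74, -0.65 and -0.48 on the wild-type myeloid arrays and at -0.88, -1.05 and -1.26 on the Rheb1-/- ones. The genotypes did not overlap, and Ulk2 fell by 0.44 ± 0.12 (adjusted p = 0.0152), a call lost without wild-type array 3 or Rheb1-/- array 3. Further Ulk2 probes that were well above background on all 14 arrays gave smaller differences, -0.14 and -0.26. Ulk1 was at 4.41, 4.36 and 4.51 in Rheb1-/- myeloid cells, within 0.07 ± 0.08 of wild type, with overlapping arrays.

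The PI3-kinase complex did not move as a unit between cell types. In wild type its catalytic subunit Pik3c3 (VPS34) and regulatory subunit Pik3r4 (VPS15) were lower in myeloid cells, by -0.36 ± 0.11 and -0.39 ± 0.10, while Becn1 (Beclin 1) was higher by 0.44 ± 0.10 and Uvrag, the subunit of the complex that acts on endosomes, by 0.35 ± 0.08. Pik3c3 overlapped between the cell types and its call was lost without progenitor array 2 or with normexp background correction. The largest change was in Atg14, the subunit that directs the complex to autophagy. Atg14 stood at 0.29, 0.34 and 0.40 in wild-type progenitors and at -0.37, -0.51 and -0.33 in wild-type myeloid cells, a fall of -0.74 ± 0.09 (adjusted p = 1.81e-05) with no overlap.

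Atg14 also was 1 of the 3 members that were higher in Rheb1-/- myeloid cells. Its Rheb1-/- myeloid arrays stood at -0.19, 0.01 and 0.00, all above wild type, and the difference was 0.34 ± 0.09 (adjusted p = 0.0126). That call was lost without wild-type array 2. In progenitors Atg14 stood at 0.48, 0.58 and 0.58 in Rheb1-/-, again above each wild-type array, but the difference of 0.21 ± 0.09 did not pass over all genes (adjusted p = 0.365), and it was 0.17 within the shared slide. Becn1 was lower in Rheb1-/- myeloid cells by -0.30 ± 0.10 (adjusted p = 0.0492), and it no longer passed when any of the 12 arrays was left out. Uvrag (-0.23 ± 0.08), Pik3c3, Pik3r4 and Ambra1, a positive regulator of Beclin 1, did not pass. Uvrag passed under 3 of 22 alternatives. Ambra1 passed only with the mean of its probes (-0.44, adjusted p = 0.00441), its second probe giving -0.80.

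Among the genes of membrane supply, Wipi1 changed most. WIPI proteins bind PI3P on the forming membrane, and ATG2 proteins carry lipid to it. Wipi1 stood at -0.09, -0.22 and 0.03 in wild-type progenitors and at 2.03, 1.92 and 1.89 in wild-type myeloid cells, a 4.12-fold rise (2.04 ± 0.15, adjusted p = 5.59e-07). Atg2a rose by 1.10 ± 0.14 and its paralogue Atg2b fell by 0.60 ± 0.13, each without overlap. Wipi2, the paralogue that recruits ATG16L1, did not pass (0.20 ± 0.14).

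Atg2a alone of these 4 passed between genotypes in myeloid cells, where 34.2% of all genes did. It stood at 1.15, 0.79 and 0.97 in wild type and at 0.65, 0.39 and 0.32 in Rheb1-/-, a difference of -0.52 ± 0.14 (adjusted p = 0.0155) with no overlap. The call was lost without Rheb1-/- array 2 or 3 and with the mean of its probes. Wipi1 was at 1.70, 1.68 and 1.71 in Rheb1-/- myeloid cells, below each wild-type array, but its difference of -0.25 ± 0.15 did not pass (adjusted p = 0.22). Wipi2 did not pass either (-0.36 ± 0.14, adjusted p = 0.0722). It passed under 3 of 22 alternatives, among them the mean of its probes (-0.32, adjusted p = 0.0177). Its further probes gave -0.63, -0.33 and 0.02.

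Of the 11 conjugation genes 6 were higher in wild-type myeloid cells than in progenitors and 2 were lower, against 39.5% and 38.4% of all genes. Atg7, the E1-like enzyme that activates both ubiquitin-like proteins, stood at -1.18, -0.91 and -1.05 in progenitors and at 0.86, 0.65 and 0.96 in myeloid cells, a 3.66-fold rise (1.87 ± 0.12, adjusted p = 2.04e-07). Atg3, the E2-like enzyme for LC3, rose from 2.44, 2.51 and 2.46 to 3.95, 3.71 and 3.81, by 1.35 ± 0.09. These E1 and E2 genes did not overlap between the cell types.

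The E2-like enzyme of the other branch went down. Atg10, which attaches ATG12 to ATG5, stood at 0.03, 0.20 and 0.02 in wild-type progenitors and at -1.13, -1.24 and -1.90 in wild-type myeloid cells. It fell 2.84-fold (SE of the log2 difference 0.19, adjusted p = 3.27e-05), and its substrate Atg12 fell by 0.68 ± 0.10. Atg5, to which ATG12 is joined, did not pass in wild type (0.16 ± 0.08, adjusted p = 0.0775). Atg16l1, the third part of the ligase, rose by 0.66 ± 0.09 on its brighter probe, but not with the mean of its 2 probes, of which the second was well above background on 6 of 14 arrays. Its paralogue Atg16l2 rose by 1.74 ± 0.11, from -0.44, -0.44 and -0.59 in progenitors to 1.24, 1.21 and 1.31 in myeloid cells.

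The ATG4 proteases trim LC3-like proteins before conjugation and release them from lipid afterwards. In wild type Atg4d rose by 1.42 ± 0.09 and Atg4c by 1.24 ± 0.10, whereas Atg4a and Atg4b differed by 0.19 ± 0.11 and 0.21 ± 0.15 and did not pass. Atg4d stood at -1.30, -1.33 and -1.29 in progenitors and at 0.17, 0.17 and 0.02 in myeloid cells.

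Between genotypes in myeloid cells, 5 of the 11 conjugation genes were lower in Rheb1-/- and 1 was higher, against 17.6% and 16.7% of all genes. Atg4c stood at 1.41, 1.43 and 1.38 in wild type and at 1.05, 0.70 and 0.97 in Rheb1-/-, a difference of -0.50 ± 0.10 (adjusted p = 0.00514). Atg7 stood at 0.29, 0.45 and 0.16 in Rheb1-/-, below all wild-type arrays, and fell by 0.53 ± 0.12 (adjusted p = 0.00761). These 2 calls held under each alternative run. The further probes of both genes that were well above background on all arrays were lower too, at -0.59 and -1.05 for Atg4c and -1.09 for Atg7.

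Atg4a was lower in Rheb1-/- myeloid cells by -0.43 ± 0.11 (adjusted p = 0.0131), at 0.30, 0.30 and 0.47 against 0.61, 0.96 and 0.80, and Atg16l2 by -0.40 ± 0.11 (adjusted p = 0.0162), at 1.04, 0.62 and 0.89 in Rheb1-/-. Each lost its call without 1 wild-type array, number 2 for Atg4a and number 3 for Atg16l2. Atg4d was lower by -0.27 ± 0.09 (adjusted p = 0.0415), which no longer passed in 10 of the 12 fits that left out an array. Atg10 was the gene that rose: its Rheb1-/- arrays stood at -0.98, -0.72 and -0.55, above each wild-type array, a difference of 0.67 ± 0.19 (adjusted p = 0.0204). The call of Atg10 was lost without Rheb1-/- array 2 or 3.

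The probes of Atg3 disagreed about genotype. The brightest, used throughout, gave a difference of 0.00 ± 0.09 in myeloid cells, with 3.95, 3.71 and 3.81 in wild type and 3.74, 3.77 and 3.96 in Rheb1-/-. Its 2 other probes gave -0.76 and -0.54, so no direction is given for Atg3 between genotypes. All 3 Atg3 probes were higher in wild-type myeloid cells than in progenitors, by 1.35, 1.99 and 1.56. Over all members, 26 had a further probe well above background on all arrays, and among the 12 of these that passed between genotypes in myeloid cells every such probe had the direction of the brightest.

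RefSeq promoter sequence (GRCm38.p6) was at hand for 31 members, with 35 starts. It is shown for Atg3 and Atg7, which rose between the cell types, and for Gabarapl1 and Gabarapl2, LC3-like genes described next that moved in opposite directions. Of the 16 members with sequence that rose in wild type, Atg3 and Atg7 were the only 2 with CACGTG, so they do not stand for the rest. Each run is the 250 bases before the start, on the plus strand in all 4 genes: Atg3 at chr16:45158579-45158828, Atg7 at chr6:114670846-114671095, Gabarapl1 at chr6:129532942-129533191 and Gabarapl2 at chr8:111940453-111940702. Capitals mark the E-box CACGTG, the core that bHLH factors of the TFEB family bind, with a flanking base that makes TCACGTG on either strand.
Atg3: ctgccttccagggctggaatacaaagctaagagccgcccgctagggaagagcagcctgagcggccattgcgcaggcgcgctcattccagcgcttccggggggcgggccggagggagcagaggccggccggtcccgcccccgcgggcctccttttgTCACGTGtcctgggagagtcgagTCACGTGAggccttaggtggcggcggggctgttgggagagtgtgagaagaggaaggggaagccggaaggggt
Atg7: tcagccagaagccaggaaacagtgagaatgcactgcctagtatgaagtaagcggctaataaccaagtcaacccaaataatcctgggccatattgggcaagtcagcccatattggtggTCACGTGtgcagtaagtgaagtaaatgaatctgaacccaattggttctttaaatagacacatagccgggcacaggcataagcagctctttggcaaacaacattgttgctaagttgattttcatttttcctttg
Gabarapl1: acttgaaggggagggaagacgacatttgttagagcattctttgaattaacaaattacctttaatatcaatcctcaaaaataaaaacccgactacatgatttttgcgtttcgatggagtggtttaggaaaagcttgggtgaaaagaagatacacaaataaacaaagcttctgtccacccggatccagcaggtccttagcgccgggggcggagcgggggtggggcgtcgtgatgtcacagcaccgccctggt
Gabarapl2: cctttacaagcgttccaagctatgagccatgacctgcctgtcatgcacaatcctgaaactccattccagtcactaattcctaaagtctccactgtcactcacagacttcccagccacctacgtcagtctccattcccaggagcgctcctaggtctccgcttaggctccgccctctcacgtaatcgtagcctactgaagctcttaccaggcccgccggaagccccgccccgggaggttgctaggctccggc

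The Atg3 run held CACGTG at 94 and 71 bases before the start and the Atg7 run at 132 bases, each within TCACGTG. Both strands were searched, and CACGTG reads the same on both. Over the 35 member promoters CACGTG occurred in 3, those of Atg3, Atg5 and Atg7, which is 8.57% against 6.02% of 32851 RefSeq promoters of the same length. TCACGTG occurred in 2, which is 5.71% against 3.13%. By direction in wild type, 2 of 16 members higher in myeloid cells held CACGTG and 0 of 7 lower ones. The forkhead motif GTAAACA was in 0 member promoters, against 3.17% of all. A match is a description of these letters and not a site shown to be bound.

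All 5 LC3-like genes passed between the cell types in both genotypes, 4 upwards and 1 downwards. Of all genes tested 77.9% passed in wild type and 68.6% in Rheb1-/-. These small ubiquitin-like proteins are the ones that coat the autophagic membrane. Gabarapl2 (GATE-16) stood at 2.44, 2.40 and 2.43 in wild-type progenitors and at 4.02, 4.30 and 4.12 in wild-type myeloid cells, a 3.30-fold rise. The wild-type groups of Gabarapl2 did not overlap.

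Map1lc3b stood at 3.96, 3.96 and 3.84 in wild-type progenitors and rose by 1.36 ± 0.08 to its myeloid levels, given below. Gabarap stood there at 3.81, 3.81 and 3.93 and rose by 1.43 ± 0.11. Map1lc3a stood at -0.92, -0.75 and -1.14 and rose by 1.68 ± 0.14. None of these genes overlapped between the wild-type cell types.

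Gabarapl1 went the other way. It stood at 5.66 on both stem cell arrays, at 4.80, 5.10 and 4.84 in wild-type progenitors and at 2.79, 2.84 and 2.74 in wild-type myeloid cells. The fall from progenitors to myeloid cells was 4.36-fold (-2.12 ± 0.12, adjusted p = 8.09e-08), and -1.89 ± 0.12 in Rheb1-/-. A second probe of Gabarapl1 gave -2.33 in wild type. Its genotype differences were 0.05 ± 0.12 in myeloid cells and -0.18 ± 0.12 in progenitors, and neither passed.

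Between genotypes 3 of 5 LC3-like genes were lower in Rheb1-/- myeloid cells and Map1lc3a was higher, against 17.6% and 16.7% of all genes. Map1lc3b stood at 5.36, 5.18 and 5.30 in wild type and at 4.81, 4.84 and 4.64 in Rheb1-/-, a difference of -0.52 ± 0.08 and the smallest adjusted p of any member in this comparison (0.00164). Gabarapl2 stood at 3.30, 2.59 and 3.47 in Rheb1-/-, 2.04-fold below wild type (-1.03 ± 0.20, adjusted p = 0.00408). Both were lower on each Rheb1-/- array, and array 2 was the lowest for Gabarapl2. Second probes gave -0.55 for Map1lc3b and -0.37 for Gabarapl2.

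Gabarap stood at 5.37, 5.33 and 5.12 in wild-type and at 4.92, 4.74 and 5.03 in Rheb1-/- myeloid cells (-0.38 ± 0.11, adjusted p = 0.0271), and lost its call without array 1 or 2 of either genotype or with normexp. Map1lc3a stood at 0.97, 0.66 and 0.61 in wild type and at 1.07, 1.34 and 1.16 in Rheb1-/-. It was higher by 0.44 ± 0.14 (adjusted p = 0.0318), a call lost without array 2 or 3 of either genotype. In progenitors all 5 LC3-like differences were below 0, from -0.18 to -0.03, and 0 passed.

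**Figure D3:**
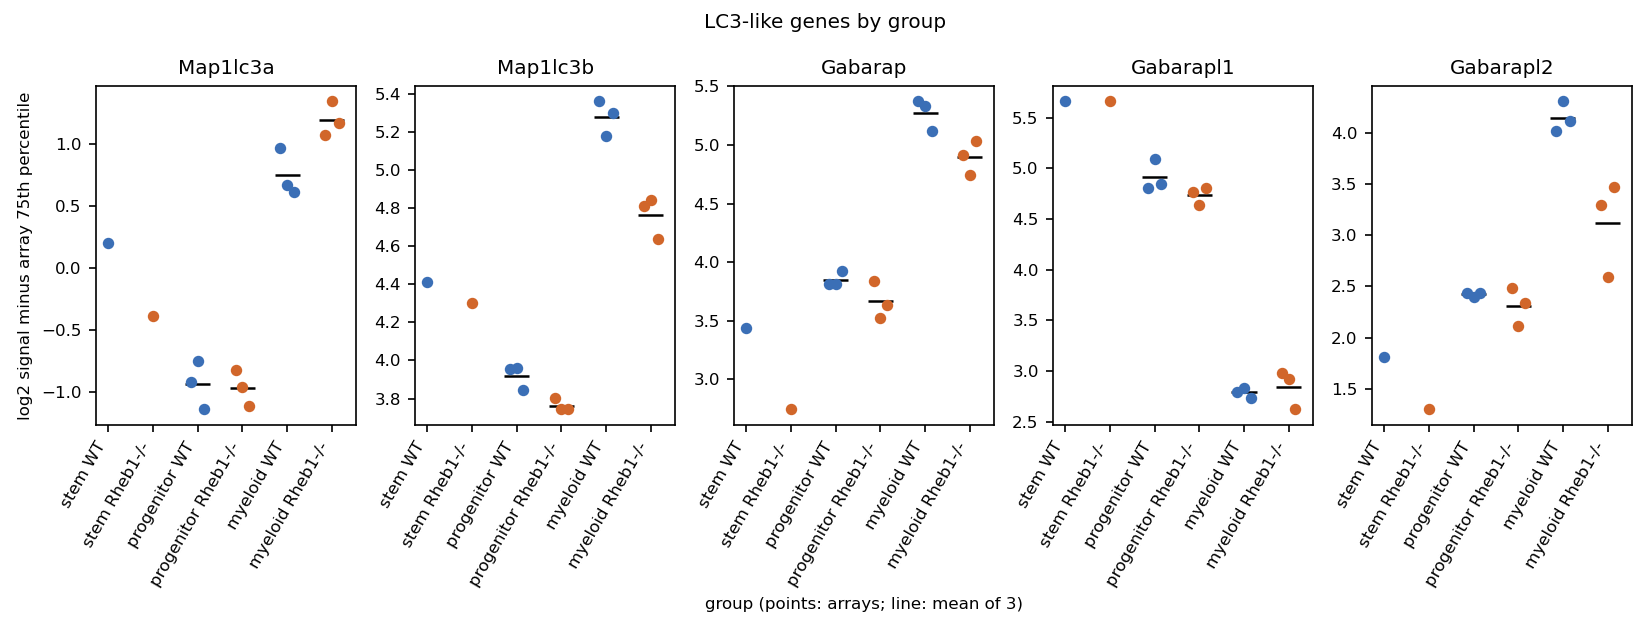
Each panel is an LC3-like gene, points are arrays (blue wild type, orange Rheb1-/-) and lines the mean of 3 arrays, as log2 signal minus the array's 75th percentile, with an axis range of its own. Gabarapl1 falls to 2.79 in wild-type myeloid cells where the other 4 genes rise, and Gabarapl2 shows the widest gap between the myeloid genotypes.

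Among the cargo receptors Optn changed most between the cell types. Optn, the receptor for ubiquitin-coated bacteria and mitochondria, stood at -2.83, -3.05 and -2.86 in wild-type progenitors and at -0.08, -0.41 and -0.11 in wild-type myeloid cells, a 6.54-fold rise (2.71 ± 0.13, adjusted p = 4.26e-08). In Rheb1-/- it rose 6.92-fold. With normexp background correction its wild-type rise was 4.2-fold (2.07), below the -2.17 of Gabarapl1 in size. Bnip3l (NIX), the mitochondrial receptor needed to clear mitochondria from maturing red cells, rose in wild type by 1.65 ± 0.13. Erythroid markers summed to 13.3 to 24.73 in wild-type progenitors against 749.6 to 1211 in wild-type myeloid cells, where Hba-a1 made up most of the sum. Of the 16 erythroid markers tested, 10 were higher in wild-type myeloid cells and 2 lower, against 39.5% and 38.4% of all genes. Their part in the rise of Bnip3l was not tested. Sqstm1 (p62) and Nbr1, which link ubiquitinated cargo to LC3, rose by 0.45 ± 0.12 and 0.37 ± 0.09.

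Tax1bp1, another ubiquitin-binding receptor, and Fundc1, a mitochondrial one, were lower in wild-type myeloid cells, by -0.42 ± 0.12 and -0.46 ± 0.09. Calcoco1, a receptor of the endoplasmic reticulum, did not pass (0.20 ± 0.23). Its highest levels were on the stem cell arrays, at -1.74 and -2.33, against -3.79 to -3.39 in progenitors.

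Between genotypes in myeloid cells 3 of 7 receptors were lower in Rheb1-/- and 0 were higher, against 17.6% and 16.7% of all genes. Bnip3l stood at 4.39, 4.80 and 4.65 in wild type and at 4.002, 3.84 and 3.97 in Rheb1-/-, a 1.59-fold difference (-0.67 ± 0.13, adjusted p = 0.00393) that a second probe gave as -0.67 too. Nbr1, at 3.12, 2.87 and 2.95 in wild type and 2.71, 2.60 and 2.72 in Rheb1-/-, was lower by -0.31 ± 0.09 (adjusted p = 0.0228), a call lost without wild-type array 1 or Rheb1-/- array 2 and with the mean of its probes. Calcoco1 stood at -3.34, -3.19 and -3.34 in wild type and at -3.56, -3.87 and -4.67 in Rheb1-/- (-0.74 ± 0.23, adjusted p = 0.031). Its call was lost without any of the 3 wild-type arrays and under normexp (-0.39), quantile normalization (-0.52) and the deposited value table. Sqstm1, which autophagy itself degrades as a protein, was at 4.53, 4.66 and 4.65 in wild type and 4.80, 4.71 and 4.65 in Rheb1-/-, overlapping and not passing (0.10 ± 0.12).

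**Figure D4:**
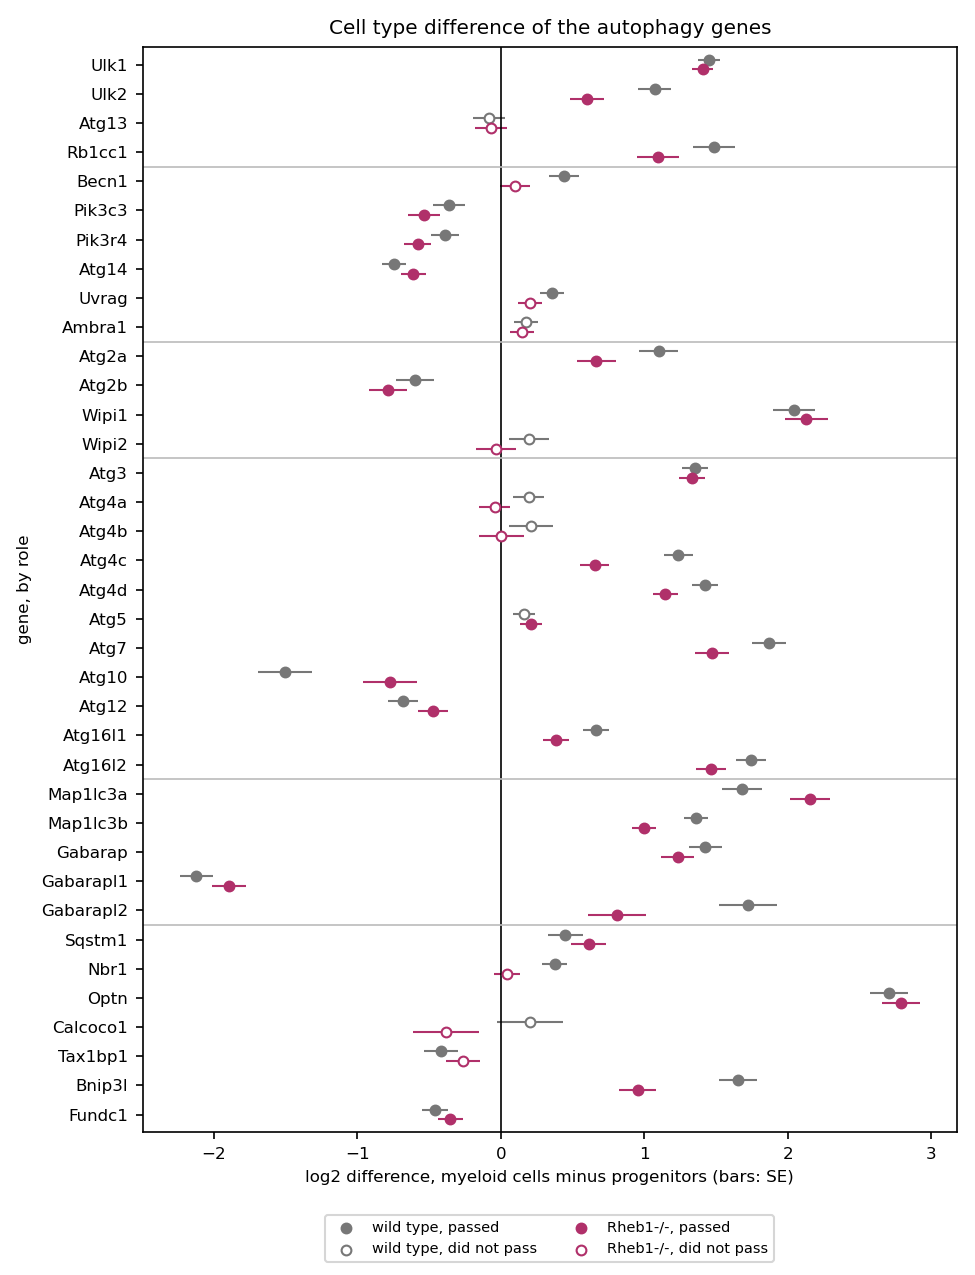
Points give the log2 difference between myeloid cells and progenitors for each gene in wild type (grey) and Rheb1-/- (purple), bars its SE, and filled points passed the limma test at adjusted p 0.05. In wild type 21 filled points lie right of 0 and 9 left, and in Rheb1-/- 19 and 8.

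Whether a genotype difference itself differed between the cell types was tested with the interaction of genotype and cell type, which also tests whether the change from progenitors to myeloid cells differed between genotypes. It passed for 2 of 37 members in the lower direction, which is 5.41% against 5.45% of all genes, and for 0 in the higher direction, against 5.62%. The share is near that of all genes. Atg4c differed by -0.58 ± 0.14 (adjusted p = 0.033): it was lower in Rheb1-/- myeloid cells by 0.50 and stood 0.09 ± 0.10 from wild type in progenitors. Bnip3l differed by -0.70 ± 0.18 (adjusted p = 0.0404), with 0.03 ± 0.13 in progenitors. Each call was lost in 9 of the 12 fits that left out an array. Gabarapl2 did not pass (-0.91 ± 0.28, adjusted p = 0.0643). At an unadjusted p under 0.05 there were 11 members, which is 29.7% against 30.5% of all genes.

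Erythroid RNA moved with the genotype in myeloid cells, beside the falls of Bnip3l and Gabarapl2. Of 16 erythroid markers tested, 14 were lower in Rheb1-/- myeloid cells, with a median of -1.92, and 0 were at background on all arrays of either group. The shares of all genes to set beside this and the marker counts below are 17.6% lower and 16.7% higher. Rheb1-/- array 2 had the lowest erythroid sum of the 6 (105.6), the lowest Bnip3l (3.84) and the lowest Gabarapl2 (2.59). It was also the lowest of the 6 for Atg4c (0.70) and Atg16l2 (0.62). For Map1lc3b (4.84) and Atg7 (0.45), also lower in Rheb1-/-, array 2 was instead the highest of the Rheb1-/- myeloid arrays. Rheb1-/- arrays 1 and 3 had erythroid sums of 462.5 and 273.9, with Bnip3l at 4.002 and 3.97 and Gabarapl2 at 3.30 and 3.47. Without Rheb1-/- array 2 Bnip3l and Gabarapl2 still passed. The erythroid sums of arrays 1 and 3 were below the 749.6 to 1211 of wild type. The part of erythroid RNA in the differences of these genes was not tested. Myeloid progenitor markers were higher in Rheb1-/- myeloid cells, 7 of 8 with a median of 1.00 and sums of 1129 to 1553 against 645.6 to 779.1. Of the monocyte and macrophage markers 6 of 11 were lower, and of the neutrophil markers 2 of 12, the latter near the share of all genes. Sums were also lower in Rheb1-/- than in wild-type myeloid cells, wild type given first, for B cell markers (12.24 to 24.64 against 6.775 to 9.213, 5 of 7 lower), megakaryocyte markers (4.429 to 7.066 against 2.16 to 3.306, 7 of 12 lower) and dendritic cell markers (10.02 to 11.54 against 5.555 to 9.337, 3 of 8 lower). T and NK cell markers summed to 21.43 to 28.14 against 41.76 to 59.96, with 6 of 9 lower and 1 higher. Eosinophil, basophil and mast cell markers summed to 132.2 to 196.4 against 97.17 to 155.3, with 3 of 9 lower. The part of all these markers in the genotype differences of the autophagy genes was not tested.

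**Figure D5:**
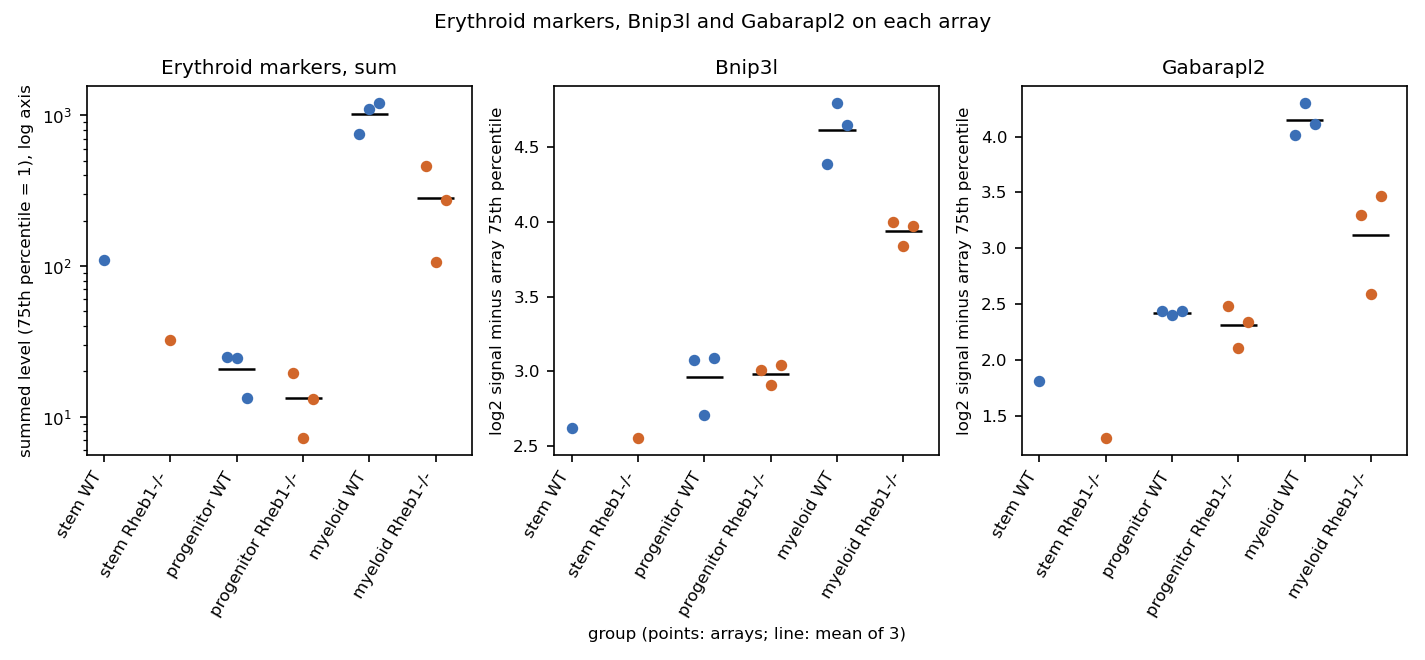
The left panel gives the summed linear level of 16 erythroid markers on each array on a log axis, and the others the log2 levels of Bnip3l and Gabarapl2, with points for arrays and lines for the mean of 3. On the myeloid arrays most of the sum is Hba-a1. Wild-type myeloid arrays are highest in all panels, and Rheb1-/- myeloid array 2 is the lowest of the 6 myeloid arrays in each.

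In progenitors the member of smallest p in each role group did not pass. In the ULK complex it was Rb1cc1, at 0.15 ± 0.15. For the PI3-kinase complex it was Atg14, given above, for membrane supply Wipi1 (-0.33 ± 0.15, adjusted p = 0.405) and for the receptors Optn (-0.31 ± 0.13, adjusted p = 0.394), the 3 members with an unadjusted p under 0.05. Within the shared slide Wipi1 differed by -0.42 and Optn by -0.22. Wipi1 stood at -0.22, -0.82 and -0.25 in Rheb1-/- progenitors, so 1 array stood well below the others, and the genotypes overlapped. For the conjugation enzymes it was Atg4a (-0.19 ± 0.11), and for the LC3-like proteins Map1lc3b (-0.16 ± 0.08), whose Rheb1-/- arrays all lay below the wild-type ones. Megakaryocyte and platelet markers summed to 32.42 to 52.67 in wild-type and 7.792 to 16.89 in Rheb1-/- progenitors, with 0 of 12 passing over all genes. All 12 were lower in Rheb1-/-, with a median of -1.63. Each had an unadjusted limma p under 0.05, against 12.3% of all genes. The part of these markers in the values of the members was not tested.

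Stem cells had 1 array per genotype, so their values stand side by side with no test and no replicate check. At 1.5-fold or more, 3 of 37 members were higher in Rheb1-/-, against 14.8% of the 16065 tested genes well above background on both arrays, and 4 were lower, against 10% of those genes. The median log2 difference was -0.03 for the members and 0.12 for all these genes. Those higher were Atg4b (0.65), Atg2b (0.61) and Rb1cc1 (0.59). Those lower were Gabarap (-0.69), Wipi1 (-0.65), Sqstm1 (-0.61) and Map1lc3a (-0.59), and Calcoco1 lay just inside the limit at -0.58. Gabarap stood at 3.44 in wild type and 2.74 in Rheb1-/-, Sqstm1 at 4.50 and 3.89. The erythroid markers summed to 108.8 on the wild-type array and 32.44 on the Rheb1-/- one. Eosinophil, basophil and mast cell (215.6 and 38.74), B cell (58.56 and 22.32), neutrophil (1119 and 574.4) and monocyte and macrophage markers (206.8 and 100.1) were lower too. Stem cell (133.8 and 164.4), myeloid progenitor (601.6 and 875.2) and T and NK cell markers (36.69 and 47.12) were higher. The part of all these markers was not tested.

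The wild-type stem cell array placed 16 members outside the range of the 12 progenitor and myeloid arrays. Gabarapl1 (5.66), Calcoco1 (-1.74) and Wipi2 (0.55) were higher there than on any of these arrays. Another 13 were lower than on any of them, among them Atg12 (2.99), Atg3 (1.55), Becn1 (0.69) and Tax1bp1 (2.71), examples chosen after their values were seen. Of 16041 genes with values on all these arrays, 14.4% were above and 23.6% below the range. Map1lc3a (0.20) and Map1lc3b (4.41) lay between progenitors and wild-type myeloid cells. With 1 array, no spread stands behind these positions.

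Further genes of the pathway, taken from lists outside the members, were counted the same way. The shares to set beside their counts are those of all genes, 39.5% higher and 38.4% lower between wild-type cell types and 16.7% and 17.6% between myeloid genotypes. Of 22 upstream regulators 12 rose and 6 fell from wild-type progenitors to myeloid cells. The largest rises by p were in Trp53inp1 (4.51 ± 0.12) and Trp53inp2 (5.33 ± 0.19), paralogues that bind LC3-like proteins, and Tfe3 (2.57 ± 0.10), a transcription factor of the TFEB family. Between genotypes in myeloid cells 1 was higher, Tfec (0.95 ± 0.16), another factor of that family, and 6 were lower, with Trp53inp1 at -0.89 ± 0.12, Dapk1, a kinase that acts on Beclin 1, at -0.78 ± 0.13 and Trp53inp2 at -0.91 ± 0.19. The median was -0.15.

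Of 20 genes of membrane growth and fusion with lysosomes, 10 rose and 3 fell between the wild-type cell types, among the rises Tecpr1 (1.92 ± 0.09), Rab7 (1.45 ± 0.07) and Plekhm1 (1.97 ± 0.13). Between genotypes 0 were higher and 8 were lower in Rheb1-/- myeloid cells. The SNARE genes Ykt6 (-0.57 ± 0.10) and Stx17 (-0.46 ± 0.09) and the tethering factor Tecpr1 (-0.49 ± 0.09) had the smallest p. The interaction passed for Stx17 (-0.59 ± 0.12) and Tecpr1 (-0.50 ± 0.12) here and for Dapk1 (-0.69 ± 0.19) among the regulators. In that direction it passed for 5.45% of all genes.

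Of 16 further receptors and mitophagy genes, 7 rose and 5 fell between the wild-type cell types, near the shares of all genes, with the smallest p in Ccpg1 (2.53 ± 0.10), a receptor of the endoplasmic reticulum. In Rheb1-/- myeloid cells 2 were higher, Nufip1 (0.54 ± 0.10), a ribosome receptor, and Phb2 (0.37 ± 0.10), a receptor of the inner mitochondrial membrane. Another 5 were lower, among them Bnip3 (-0.47 ± 0.11), the paralogue of Bnip3l. In progenitors 0 genes of these 3 lists passed between genotypes, against 0.0734% of all genes. Of their 22, 20 and 16 genes, 4, 2 and 1 had an unadjusted p under 0.05, against 12.3% of all genes. In Rheb1-/- samples the counts between cell types were 10 higher and 6 lower, 11 and 3, and 6 and 6 in the same order of lists. The shares of all genes there were 30.4% higher and 38.3% lower.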

How the data were processed

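Spot intensity per array was deposited by the authors as Agilent Feature Extraction output. Per the file headers the processed signal was background-subtracted within each array by version 10.7.3.1. Version 9.1 is the one named in the submitters' processing notes. The authors' deposited value table holds log2 values of the same arrays, whose scaling the sources used here do not state. It served as an alternative. Its differences came close to those under quantile normalization, such as 0.7108 and 0.7104 for Atg10 between myeloid genotypes. These alternatives are therefore not separate checks.

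From the intensities, spots of a probe were averaged, log2 was taken and the array's 75th percentile over 41174 probes subtracted. Control and outlier spots were left out. A gene entered the fit if some group had all 3 of its arrays well above background. Probe coordinates in the files use mm9. limma 3.58.1 in R 4.3.3 fitted 12 arrays of the 4 replicated groups, 1 mean each, with 8 residual degrees of freedom, and p-values were adjusted by Benjamini-Hochberg over 17720 genes within each comparison (threshold 0.05, two-sided). The number of arrays limits precision. The fit was tested on simulated data.

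Named genes were, within each comparison and role group, those passing in order of p, with at most 4 given array by array, or else the member of smallest p. Array values of other members, such as Atg10 and Gabarapl2 between cell types, were added after their values were seen. Of the other pathway lists up to 3 were named. Members, lists and markers were chosen with earlier results of these data known. Same-numbered arrays of different groups had correlations of their deviations from -0.154 to 0.133, so replicate numbers were not taken as pairs. Alternatives covered background correction, scaling, probes of a gene, the filter, slide, weights and each array left out.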

Additional observations from a re-analysis of the deposited data

Results flagged for a closer look

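Atg4c, a protease of LC3-like proteins, and Bnip3l, a mitochondrial receptor, were singled out because their genotype difference was not the same in the 2 cell types by the interaction test of limma. The genotype difference in myeloid cells minus that in progenitors was -0.58 for Atg4c (adjusted p = 0.033) and -0.70 for Bnip3l (adjusted p = 0.0404), over 12 arrays. Each call was lost in 9 of the 12 fits that left out an array, with no filter on dim probes and with the replicate block (adjusted p = 0.0606 and 0.0647). In this direction the interaction passed for 5.41% of members, near the 5.45% of all genes. For both genes all 3 Rheb1-/- myeloid arrays lay below all 3 wild-type ones, and the progenitor genotypes overlapped. These are the same values by which the genes were singled out, so they add no separate support. Erythroid markers fell in the same myeloid comparison (14 of 16, against 17.6% of all genes), and their part in the Bnip3l difference was not tested.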

How the results depend on the processing

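Between wild-type cell types the count of 30 members stayed between 28 and 32, and in Rheb1-/- the count of 27 between 26 and 29, under all alternatives run. Progenitor genotypes gave 0 throughout. The 17 calls between myeloid genotypes became 11 (2 higher, 9 lower) with no filter on dim probes and 7 (0 higher, 7 lower) with only the 6 myeloid arrays in the fit, and ranged from 10 to 16 with an array left out. The 2 interaction calls became 6 when a gene's probes were averaged, 0 with no filter and 0 with the replicate block, and ranged from 0 to 2 with an array left out. With the replicate block, which changed no other count by over 1.5 times, 16 members passed between myeloid genotypes. Averaging a gene's probes reversed 2 values: Atg3 between myeloid genotypes became -0.43 (adjusted p = 0.0086) and Atg16l1 between Rheb1-/- cell types became -0.26 (adjusted p = 0.264), where further probes differ from the brightest, and 9 further differences that passed in neither fit changed sign. The causes of the other shifts were not tested. Of the values for single genes under alternatives, 3806 kept direction and call, 103 lost it, 35 gained it, and 87 changed sign without passing before or after. Slide and genotype cannot be told apart in myeloid and stem cells, 3 arrays a group limit what small differences can pass, and a signal over background says nothing of protein or autophagic flux.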
